A study of Mus musculus with 15 samples.

Results

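The splicing regulator families described here are the 62 genes, of 20610 genes in the expression table, whose symbols name an SR protein (Srsf), an hnRNP, or a member of the Rbfox, Celf, Elavl, Ptbp, Mbnl, Nova, Srrm, Khdrbs or Esrp families, or Qk. They are set by symbol and by no measured value, although the families were proposed with earlier results of these data known. Their transcript levels were followed across neurons, astrocytes and microglia of the mouse cortex. The families hold 11 SR proteins, 20 hnRNPs and 31 members of the families known for tissue-restricted action. These 31 include general or widely expressed members, such as Srrm1, Srrm2, Celf1 and Elavl1. Of the 62 genes, 59 reached 1 TPM (transcripts per 1000000) in at least 5 of the 15 libraries and were tested. The 3 that did not were Esrp1, Esrp2 and Mbnl3, whose highest values in any library were 0.14, 1.04 and 0.21 TPM.

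The study profiled polyadenylated RNA from 3 cell isolates, with 5 libraries each, to compare gene expression between neural cell types. The source was wild-type (WT) males at postnatal day 28, from whose cortices neurons, astrocytes and microglia were separated magnetically. The mice carried no transgene or reporter by the labels, so a group is defined by its isolation step. Which mouse or mice gave each library is not labelled, and the p-values therefore measure the spread between libraries, which may be technical.

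An intron is removed by the spliceosome, and whether an alternative exon is kept depends on proteins that bind the transcript beside it. SR proteins carry arginine-serine repeats and mostly favour exon inclusion, while hnRNPs coat nascent RNA and often oppose it. The Rbfox, Nova, Celf, Elavl, Mbnl, Ptbp, Khdrbs and Qk proteins, Srrm3 and Srrm4 act on narrower sets of exons, whereas Srrm1 and Srrm2 are general coactivators. In the brain, the exchange of Ptbp1 for Ptbp2 and the microexon programme driven by Srrm3 and Srrm4 are textbook examples of neuronal splicing control. Esrp1 and Esrp2 are the epithelial members of this group.

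The isolates were checked against marker lists. The 12 astrocyte markers summed to 23652 TPM on average in the astrocyte isolates, against 187 TPM in the neuron isolates, and the 12 microglia markers summed to 96817 TPM in the microglia isolates against 107 and 207 TPM in the other two. The 11 pan-neuronal markers summed to 1085 to 2195 TPM in the neuron isolates, 142 to 336 TPM in the astrocyte isolates and 18.0 to 169 TPM in the microglia isolates. Neurons stood apart from both, and the astrocyte and microglia ranges overlapped. The neuron isolates also held 8850 to 13317 TPM of 12 endothelial markers and 3014 to 5632 TPM of 9 mural cell markers, more than their pan-neuronal sum. The 10 mature oligodendrocyte markers summed to 69786 and 52001 TPM in microglia replicates 1 and 2 and to 252 to 8179 TPM in the other 3. They summed to 8469 and 10369 TPM in neuron replicates 1 and 2, more than the pan-neuronal sums of those libraries (1239 and 1085 TPM). They summed to 212 to 1638 TPM in the other neuron libraries and to 445 to 3810 TPM in the astrocyte isolates. In bulk RNA of this kind, fewer cells of a type and less RNA per cell cannot be told apart.

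Promoter sequences from RefSeq (GRCm38.p6), spanning 250 bases before to 50 bases after an annotated start, were available for 53 of the 62 members, with 91 starts. Those of the members on which the results turn are printed 5′ to 3′ on the strand of the gene: Rbfox3 and Srrm3, which were highest in the neuron isolates, Mbnl1, with both of its starts, which was highest in microglia, Qk, which was lowest in neurons, and Srsf7 and Hnrnpc, which were called in no comparison. Capitals mark the letters of the motifs searched.
Rbfox3 (chr11:118760992-118761291, minus strand): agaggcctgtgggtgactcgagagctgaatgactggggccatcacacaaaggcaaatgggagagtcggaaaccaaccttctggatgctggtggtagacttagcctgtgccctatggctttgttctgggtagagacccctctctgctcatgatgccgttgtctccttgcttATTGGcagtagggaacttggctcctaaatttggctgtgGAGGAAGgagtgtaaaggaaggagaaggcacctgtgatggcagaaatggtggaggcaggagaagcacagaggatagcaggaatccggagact
Srrm3 (chr5:135817856-135818155, plus strand): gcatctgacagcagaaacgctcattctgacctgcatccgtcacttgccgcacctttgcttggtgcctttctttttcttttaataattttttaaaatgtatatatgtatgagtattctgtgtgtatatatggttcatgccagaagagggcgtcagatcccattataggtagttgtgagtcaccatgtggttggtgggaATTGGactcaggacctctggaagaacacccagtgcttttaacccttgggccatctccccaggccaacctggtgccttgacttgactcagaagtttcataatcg
Mbnl1 start 1 (chr3:60472580-60472879, plus strand): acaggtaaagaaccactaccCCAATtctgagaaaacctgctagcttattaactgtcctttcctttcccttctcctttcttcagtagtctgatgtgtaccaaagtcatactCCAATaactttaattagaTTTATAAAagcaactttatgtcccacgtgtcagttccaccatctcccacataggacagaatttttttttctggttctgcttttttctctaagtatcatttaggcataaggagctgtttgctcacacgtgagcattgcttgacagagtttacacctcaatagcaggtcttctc
Mbnl1 start 2 (chr3:60500929-60501228, plus strand): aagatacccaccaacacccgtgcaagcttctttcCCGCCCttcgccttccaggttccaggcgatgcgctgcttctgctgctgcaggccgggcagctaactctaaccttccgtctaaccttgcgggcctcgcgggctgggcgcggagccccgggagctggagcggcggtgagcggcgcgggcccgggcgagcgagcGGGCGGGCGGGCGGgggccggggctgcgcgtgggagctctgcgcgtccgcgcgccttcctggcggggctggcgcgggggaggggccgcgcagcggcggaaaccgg
Qk (chr17:10319312-10319611, minus strand): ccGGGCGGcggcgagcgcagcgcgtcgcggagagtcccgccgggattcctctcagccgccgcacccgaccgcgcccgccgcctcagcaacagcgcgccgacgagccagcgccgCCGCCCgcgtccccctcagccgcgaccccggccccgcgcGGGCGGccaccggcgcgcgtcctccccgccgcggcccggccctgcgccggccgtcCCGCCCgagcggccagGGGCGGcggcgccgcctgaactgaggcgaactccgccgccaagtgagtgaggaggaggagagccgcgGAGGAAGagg
Srsf7 (chr17:80207256-80207555, minus strand): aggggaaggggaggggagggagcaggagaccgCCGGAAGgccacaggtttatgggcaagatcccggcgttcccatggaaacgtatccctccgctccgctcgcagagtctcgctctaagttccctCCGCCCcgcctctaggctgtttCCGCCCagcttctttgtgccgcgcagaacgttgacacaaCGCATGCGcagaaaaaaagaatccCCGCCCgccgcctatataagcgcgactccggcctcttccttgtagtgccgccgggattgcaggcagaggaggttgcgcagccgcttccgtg
Hnrnpc (chr14:52103972-52104271, minus strand): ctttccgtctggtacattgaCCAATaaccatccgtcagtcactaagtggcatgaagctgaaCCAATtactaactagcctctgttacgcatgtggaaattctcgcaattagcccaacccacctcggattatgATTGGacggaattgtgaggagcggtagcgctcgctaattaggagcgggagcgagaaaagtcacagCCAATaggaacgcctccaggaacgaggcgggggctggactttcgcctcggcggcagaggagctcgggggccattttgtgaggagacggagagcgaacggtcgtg

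These windows differed in base composition. Those of Rbfox3 and Srrm3 and the second of Mbnl1 lay inside the annotated gene span, well downstream of its 5′ end, whereas the others lay at or near it. The values therefore describe these starts only. The Rbfox3 and Srrm3 promoters held 53.0% and 45.0% G and C with 4 and 5 CpG dinucleotides, and the first Mbnl1 start held 39.3% with 2 CpG. The second Mbnl1 start held 75.0% with 41 CpG, the Qk promoter 81.7% with 57 CpG, and the Srsf7 and Hnrnpc promoters 62.7% and 54.3% with 28 and 22 CpG. The motifs were searched on both strands, and matches that overlap are capitalised as one run. A GC box (GGGCGG), the letters bound by SP and KLF factors, was found in 34 of the 41 SR protein and hnRNP promoters (82.9%), in 24 of 50 promoters of the tissue-restricted families (48%) and in 35.7% of all 32851 promoters in the table. An ETS site (CCGGAAG) was found in 10 of those 41 promoters, in 0 of the 50 and in 8.86% of all promoters. A CCAAT box (CCAAT) was found in 51.2%, 48% and 37.4%, and a TATA box (TATAAA) in 9.76%, 10% and 13.6%. The purine-rich ETS letters GAGGAAG were found in 14.6%, 18% and 13.6%, the cyclic AMP response letters ACGTCA in 22%, 12% and 7.51%, the nuclear respiratory factor letters GCATGCG in 12.2%, 2% and 3.58%, and the YY letters GATGGCG in 4.88%, 8% and 3.49%. Of the letters of the neuronal repressor REST, CAGCACC was found in 2.44%, 0% and 7.14% and GGACAGC in 4.88%, 4% and 6.56%. Several starts of 1 gene overlap, so the promoters are not independent, and a match describes letters in this window only.

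Levels were compared on the log2(TPM + 1) scale with limma across all 13351 genes that passed the filter, with Benjamini-Hochberg adjustment, and a gene was called at an adjusted p below 0.05 and an absolute log2 difference of at least 1. Between neurons and astrocytes, 9 of the 59 members were called, where 25.6% of all tested genes were. Of these, 8 were higher in neurons (12.9% of all tested genes were) and 1, Qk, was higher in astrocytes (12.7%). Between neurons and microglia, 20 members were called (39.3% of all tested genes), 17 higher in neurons (29.5%) and 3 higher in microglia (9.74%). Of the 17, Celf5, Celf6, Elavl2, Khdrbs2, Nova2, Srrm4 and Srsf12 passed the filter only with the neuron libraries counted. Between astrocytes and microglia, 12 were called (42.5%), 9 higher in astrocytes (32.3%) and 3 higher in microglia (10.2%). The called share of the members, 15.3%, 33.9% and 20.3%, lay below that of all tested genes in each comparison of this fit. Between neurons and microglia it lay above with median-of-ratios scaling (37.3% of members against 35.6% of all tested genes), so its place there depended on the setting. With no filter, 20 of the same 59 members and 5353 of 19092 genes were called. The member count there leaves out Esrp1, Esrp2 and Mbnl3 while the gene count holds all low genes, so these 2 shares are not alike. The comparisons share libraries: each cell type enters 2 of them.

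The median log2 difference of the members was 0.34 between neurons and astrocytes, 0.52 between neurons and microglia and 0.36 between astrocytes and microglia, beside -0.03, 0.48 and 0.57 over all tested genes. Both comparisons with microglia thus ran against an all-gene median well above 0, and another scaling moved it. With median-of-ratios scaling the all-gene medians shifted by -0.33 and -0.40, and the members were split 14 higher in neurons to 8 higher in microglia, and 4 higher in astrocytes to 9 higher in microglia. With quantile normalization the shifts were -0.45 and -0.52 and the splits 10 to 7 and 1 to 6. The direction in which most called members differed between astrocytes and microglia thus changed with the scaling. The 5 libraries of 2 groups did not overlap for 19 members between neurons and astrocytes (39.0% of all tested genes), for 37 between neurons and microglia (54.3%) and for 21 between astrocytes and microglia (58.4%).

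**Figure D1:**
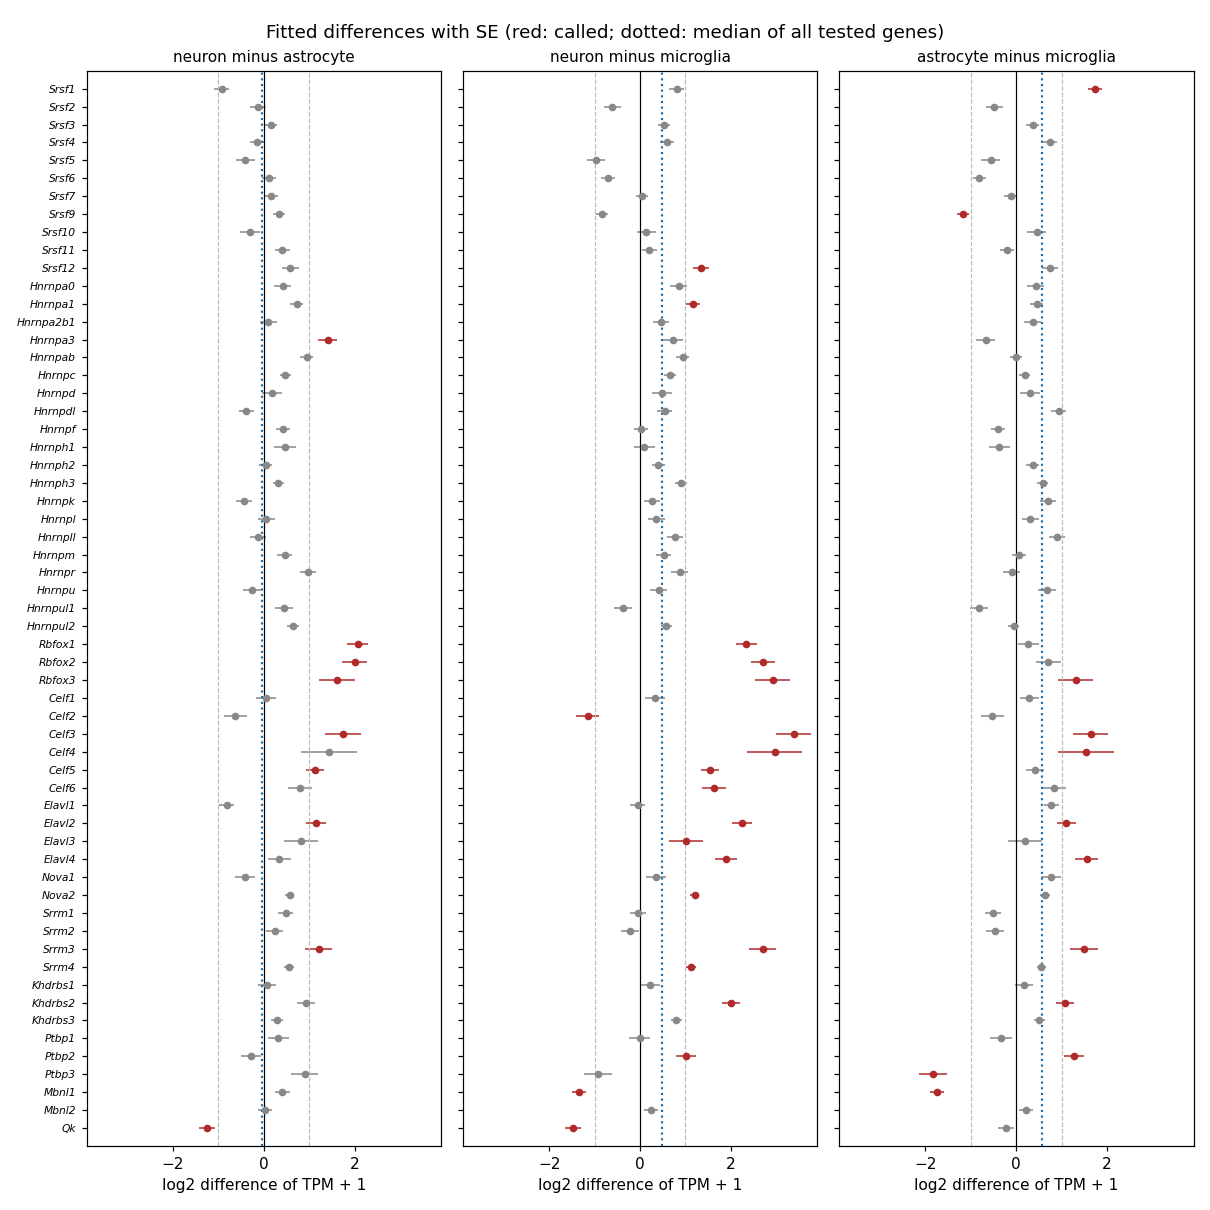
Fitted log2 differences of TPM + 1 with their standard errors (horizontal bars) for the 59 tested splicing regulators in the 3 comparisons. Red points were called, the dashed lines mark a difference of 1 in either direction and the dotted line marks the median of all tested genes; the called points lie mostly among the Rbfox, Celf, Elavl, Nova, Srrm, Khdrbs, Ptbp, Mbnl and Qk genes in the lower part of each panel.

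By class, 0 of 11 SR proteins, 1 of 20 hnRNPs and 8 of the 28 tested members of the tissue-restricted families were called between neurons and astrocytes (25.6% of all tested genes). The counts were 1, 1 and 18 between neurons and microglia (39.3%), and 2, 0 and 10 between astrocytes and microglia (42.5%). Called higher in neurons than in both other cell types were 7 members, Rbfox1, Rbfox2, Rbfox3, Celf3, Celf5, Elavl2 and Srrm3 (9.58% of all tested genes showed this pattern). Among these, Celf5 and Elavl2 passed the filter only with the neuron libraries counted. Mbnl1 was the 1 member called higher in microglia than in both others (7.42%), and Qk the 1 called lower in neurons than in both (1.78%). No member was called higher in astrocytes than in both others (0 of 59, against 10.2%) or lower (0 of 59, against 2.16%). Called lower in microglia than in both others were 8 members, Celf3, Celf4, Elavl2, Elavl4, Khdrbs2, Ptbp2, Rbfox3 and Srrm3 (18.3%). These last calls depended on the scaling: with median-of-ratios scaling 3 of the 8, Celf3, Elavl4 and Srrm3, kept the pattern, and with quantile normalization 0 did, since all 8 lost their call between astrocytes and microglia. The members called higher in microglia than in both others became 6 with the former (Celf2, Mbnl1, Ptbp3, Srsf5, Srsf6 and Srsf9) and 4 with the latter (Mbnl1, Ptbp3, Srsf6 and Srsf9), and Hnrnpa3 was then called lower in astrocytes than in both others. Between neurons and astrocytes, Hnrnpab and Hnrnpr gained a call with both scalings. Between neurons and microglia, Elavl3, Hnrnpa1 and Ptbp2 lost their call with both scalings, and Celf5, Nova2, Srrm4 and Srsf12 with quantile normalization. Calls were also lost without all libraries numbered 1 and 2 for Celf2 between neurons and microglia (-0.99) and Elavl2 between neurons and astrocytes (0.78). Without all numbered 3 and 4 they were lost for Elavl3 and Ptbp2 between neurons and microglia (0.66 and 0.99) and Elavl2 between astrocytes and microglia (0.66). In all, 24 members were called in at least 1 comparison (57.9% of all tested genes) and 35 in none (42.1%).

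**Figure D2:**
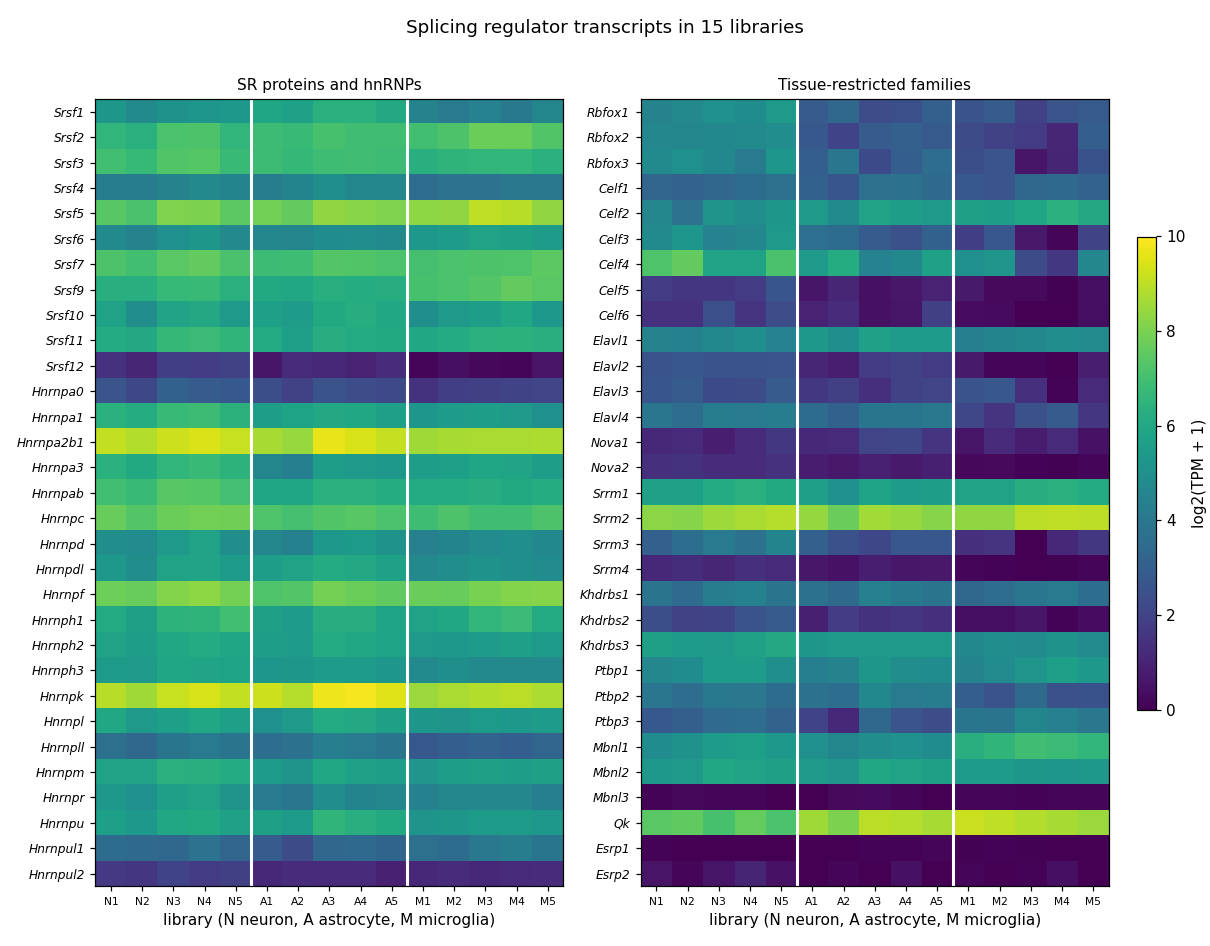
Level of each of the 62 splicing regulators in each of the 15 libraries, as log2(TPM + 1) on one colour scale from 0 to 10. SR proteins and hnRNPs stand on the left and the other families on the right; rows such as Rbfox1, Celf3, Elavl2 and Srrm3 (right) are lighter in the 5 neuron libraries.

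The Rbfox proteins bind a GCAUG element beside alternative exons, and Rbfox3 is the antigen known as NeuN. All 3 genes were higher in neurons than in either other isolate. Rbfox1 (chr16:5885355-7411526, plus strand in mm10) was at 21.3, 25.3, 31.9, 28.4 and 41.8 TPM in neuron replicates 1 to 5, 6.38, 9.32, 4.21, 4.47 and 7.49 TPM in astrocytes and 5.04, 6.44, 2.8, 5.2 and 6.07 TPM in microglia. Every neuron library lay above every other library, and astrocytes and microglia overlapped. The log2 difference was 2.07 (SE 0.23, adjusted p = 6.74e-07) from astrocytes and 2.33 (SE 0.23, adjusted p = 7.23e-08) from microglia, while astrocytes and microglia differed by 0.26 (SE 0.23, adjusted p = 0.319).

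Rbfox2 (chr15:77078990-77307004, minus strand), the most widely expressed of the family across tissues, was at 23.8, 23.2, 24.6, 26.9 and 28.8 TPM in neurons, the narrowest relative spread of the 3 genes in that isolate. It was at 5.8, 3.04, 6.38, 7.46 and 6.17 TPM in astrocytes and 3.88, 2.81, 2.46, 1.12 and 6.86 TPM in microglia, again with no overlap with neurons. The differences were 2.004 (SE 0.27, adjusted p = 6.92e-06) from astrocytes and 2.71 (SE 0.27, adjusted p = 8.6e-08) from microglia. Rbfox3 (chr11:118489762-118911597, minus strand) was at 26.3, 31.5, 24.4, 16.5 and 36.9 TPM in neurons, 7.03, 14.4, 3.79, 6.98 and 10.9 TPM in astrocytes and 4.35, 5.25, 0.54, 1.03 and 4.78 TPM in microglia. Neurons stood apart from both, and microglia replicates 3 and 4 were the lowest of all 15 libraries. Its differences were 1.61 (SE 0.39, adjusted p = 0.00189) and 2.92 (SE 0.39, adjusted p = 2.71e-06), and astrocytes were higher than microglia by 1.31 (SE 0.39, adjusted p = 0.00578). Without all libraries numbered 3 and 4 that last difference was 0.98, under the size asked for a call. Within microglia the pan-neuronal marker sum was lowest, at 33.8 and 18.0 TPM, in the same replicates 3 and 4, and 112 to 169 TPM in the other 3. Within astrocytes it followed the order of Rbfox3. Within neurons both were highest in replicate 5, but the sum was lowest in replicate 2 (1085 TPM), where Rbfox3 was at 31.5 TPM. Rbfox3 was lowest there in replicate 4 (16.5 TPM), where the sum was 1383 TPM. The ratio of the mean pan-neuronal sums was 6.79 between neurons and astrocytes and 16.2 between neurons and microglia. The endothelial sums differed by more in the same comparisons, with ratios of 8.22 and 51.4, and the mural sums had ratios of 1.89 and 23.9. The part that RNA of any of these cells has in the Rbfox values was not tested.

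Celf proteins bind GU-rich RNA and act in splicing and in transcript decay. Of the 6, Celf1 was called in no comparison, Celf2 was highest in microglia, and Celf3, Celf4, Celf5 and Celf6 were highest in neurons. Celf3 (chr3:94478295-94492198, plus strand) was at 26.1, 36.8, 20.9, 23.5 and 40.4 TPM in neurons, 11.7, 10.7, 6.53, 4.6 and 7.64 TPM in astrocytes and 2.66, 5.64, 0.62, 0.13 and 3.19 TPM in microglia. All neuron libraries lay above all others. It differed by 1.74 (SE 0.39, adjusted p = 0.000973) from astrocytes and by 3.38 (SE 0.39, adjusted p = 4.43e-07) from microglia, the largest difference of any member in that comparison, and by 1.63 (SE 0.39, adjusted p = 0.00104) between astrocytes and microglia.

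Celf4, the most abundant Celf transcript over all libraries, spread widely within each isolate. It was at 153, 191, 55.8, 54 and 139.7 TPM in neurons, 41.6, 72.2, 20.7, 24.8 and 51.5 TPM in astrocytes and 31.2, 36, 4.04, 2.08 and 23.6 TPM in microglia. Replicates 3 and 4 were the lowest in each of the 3 isolates. They also held the least mature oligodendrocyte RNA of their isolate. Those marker sums were 212 and 236 TPM in neurons, 628 and 445 TPM in astrocytes and 6749 and 252 TPM in microglia. The pan-neuronal sum was lowest in the same replicates in astrocytes (142 and 174 TPM) and microglia (33.8 and 18.0 TPM). In neurons it was lowest in replicates 2 and 1 (1085 and 1239 TPM). The part of oligodendrocyte or neuronal RNA in the Celf4 values was not tested. Between neurons and microglia the difference was 2.96 (SE 0.61, adjusted p = 0.000342) with no overlap. Between neurons and astrocytes it was 1.43 (SE 0.61, adjusted p = 0.0569) and missed the adjusted p asked for, and 2 neuron libraries fell within the astrocyte range. Without all libraries numbered 3 and 4 it was 1.55 with an adjusted p of 0.000108. It was also called with these 2 cell types alone in the fit (1.43), without neuron replicate 3 (1.65) or 4 (1.66), without astrocyte replicate 2 (1.65), and without microglia replicate 1, 2, 3 or 4 (1.43 each), which enter the spread alone. The astrocyte excess over microglia, 1.53 (SE 0.61, adjusted p = 0.0328), was lost without astrocyte replicate 1, 2 or 5 (1.5, 1.31 and 1.42), and without microglia replicate 3 or 4 (1.17 and 0.997). It was lost as well with both scalings, with no filter (1.53), with those 2 cell types alone in the fit (1.53) and without all libraries numbered 3 and 4 (0.83).

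Celf5 and Celf6 were low in every isolate. Celf5 was at 2.5, 2.02, 1.96, 2.31 and 5.38 TPM in neurons, 0.51, 1.12, 0.37, 0.56 and 0.93 TPM in astrocytes and 0.63, 0.18, 0.19, 0.03 and 0.34 TPM in microglia. Neurons did not overlap the others, and neuron replicate 5 stood far above the other 4. Its differences were 1.13 (SE 0.20, adjusted p = 0.000136) from astrocytes, which became 0.93 and fell short of a call without neuron replicate 5, and 1.54 (SE 0.20, adjusted p = 2.35e-06) from microglia. Celf6 was at 1.72, 1.72, 4.46, 1.81 and 4.09 TPM in neurons, 0.97, 1.44, 0.36, 0.50 and 2.68 TPM in astrocytes and 0.26, 0.24, 0.02, 0 and 0.28 TPM in microglia. It was called between neurons and microglia at 1.63 (SE 0.26, adjusted p = 2.34e-05); neurons overlapped astrocytes, from which it differed by 0.80 (SE 0.26, adjusted p = 0.0148), reaching 1.01 and a call without astrocyte replicate 5. At these levels the added 1 TPM shrinks a difference.

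Celf2 (chr2:6539694-7509563, minus strand) ran in the other direction. It was at 23.1, 13.1, 35.1, 29.7 and 38 TPM in neurons, 42, 25.5, 53.2, 47.7 and 41.4 TPM in astrocytes and 49.9, 46.1, 60.2, 83.5 and 64.1 TPM in microglia. Every microglia library lay above every neuron library, while astrocytes overlapped both. The difference of neurons from microglia was -1.16 (SE 0.25, adjusted p = 0.000592), and -0.92 and no longer called without neuron replicate 2, the lowest library. Celf1, a widely expressed member, was at 9.53 ± 1.73, 9.49 ± 2.98 and 7.47 ± 1.91 TPM in neurons, astrocytes and microglia (SD, n = 5 each), with all 3 groups overlapping.

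**Figure D3:**
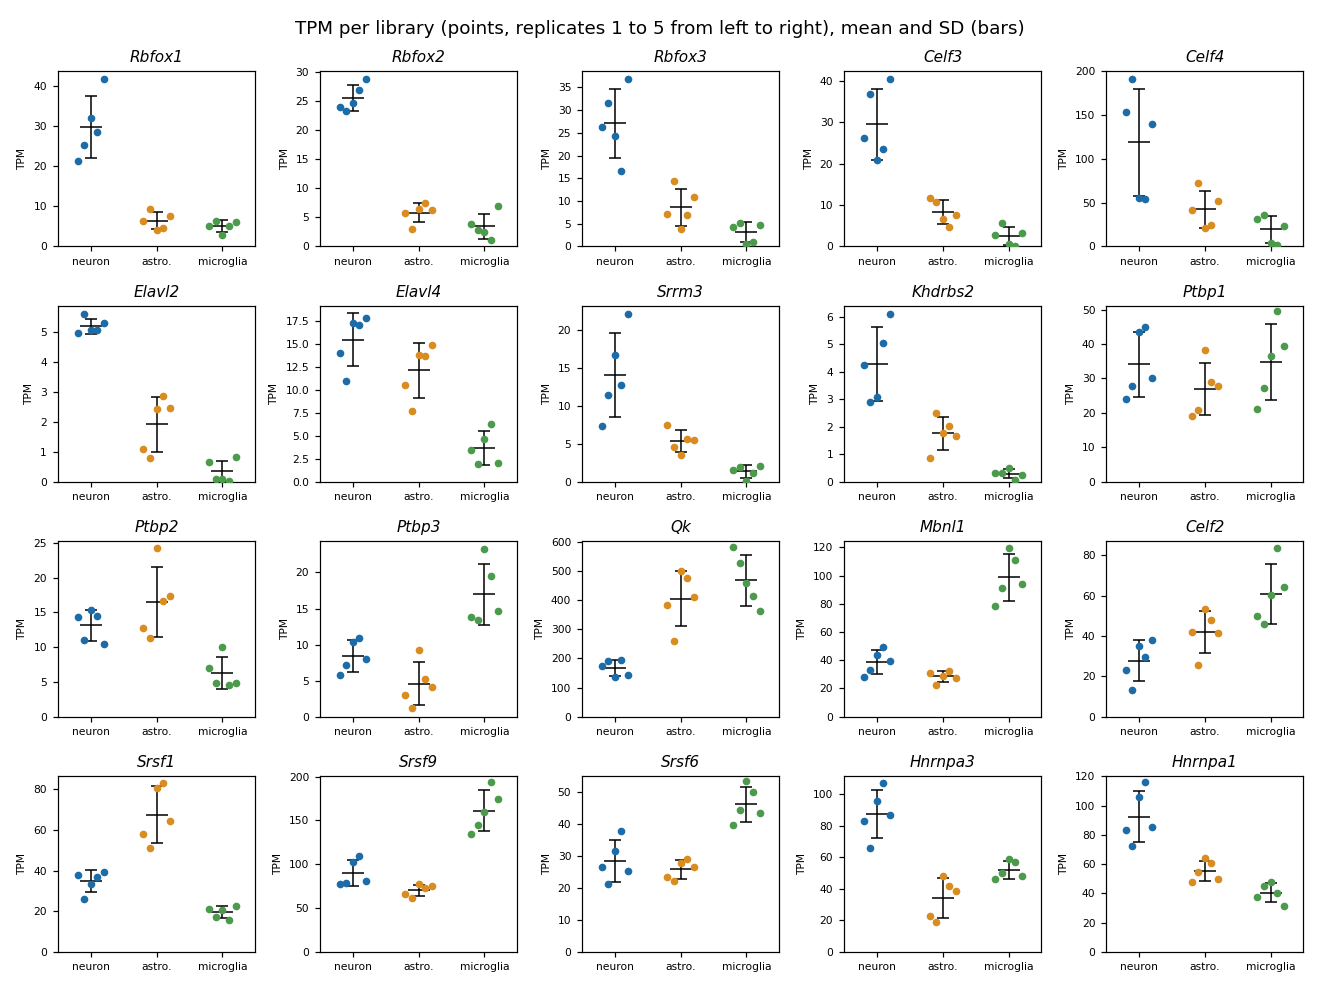
TPM in each library (points, replicates 1 to 5 from left to right) with mean and SD (bars) for 20 splicing regulators in neurons, astrocytes and microglia; each panel has its own axis from 0. The 5 neuron points of Rbfox1, Rbfox2, Rbfox3, Celf3 and Elavl2 lie above all others, those of Qk below all others, and the microglia points of Mbnl1 above all others.

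Of the Elavl proteins, which bind AU-rich and U-rich RNA, Elavl1 (HuR) is found in most tissues and Elavl2, Elavl3 and Elavl4 are the neuronal Hu proteins. Elavl2 (chr4:91250763-91400785, minus strand) was at 4.97, 5.58, 5.04, 5.04 and 5.3 TPM in neurons, 1.09, 0.79, 2.41, 2.85 and 2.45 TPM in astrocytes and 0.65, 0.10, 0.10, 0.02 and 0.81 TPM in microglia. The neuron libraries lay within a range of less than 1 TPM and above all others. The differences were 1.15 (SE 0.22, adjusted p = 0.000251), 2.25 (SE 0.22, adjusted p = 5.63e-08) and, for astrocytes over microglia, 1.105 (SE 0.22, adjusted p = 0.00021). The first fell to 0.99 without astrocyte replicate 2, the last to 0.99 without astrocyte replicate 4, and each was then under the size asked for.

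Elavl4 (HuD; chr4:110203722-110351909, minus strand) was at 14, 11, 17.2, 17 and 17.8 TPM in neurons, 10.5, 7.62, 13.8, 13.7 and 14.9 TPM in astrocytes and 3.42, 1.92, 4.65, 6.28 and 2 TPM in microglia. Neurons and astrocytes overlapped and differed by 0.34 (SE 0.25, adjusted p = 0.261), and both lay above every microglia library, by 1.89 (SE 0.25, adjusted p = 2.51e-06) and 1.55 (SE 0.25, adjusted p = 2.35e-05). The order of the microglia libraries differed from that of the pan-neuronal markers: Elavl4 was highest in replicates 4 and 3, where the marker sum was lowest. Elavl3 (HuC) was at 5.33, 6.57, 3.78, 3.87 and 6.32 TPM in neurons, 2.11, 2.72, 1.59, 2.77 and 3.2 TPM in astrocytes and 4.9, 5.62, 1.64, 0.06 and 1.26 TPM in microglia. Neurons lay above astrocytes without overlap (0.82 (SE 0.37, adjusted p = 0.0698)). They overlapped microglia, with neuron replicates 2 and 5 above every microglia library. Its call between neurons and microglia, 1.01 (SE 0.37, adjusted p = 0.0225), sat at the size threshold and was lost without neuron replicate 1, 2 or 5 (0.99, 0.93 and 0.94) or microglia replicate 3, 4 or 5 (0.96, 0.63 and 0.91). Elavl1, the most abundant of the family, was at 21.3, 20, 24.7, 30.4 and 20.5 TPM in neurons, 39.2, 30.1, 52.4, 45 and 44.2 TPM in astrocytes and 18.9, 22, 24.4, 28.7 and 27.1 TPM in microglia, and was called nowhere; astrocytes were 0.77 (SE 0.16, adjusted p = 0.000421) from microglia without overlap.

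**Figure D4:**
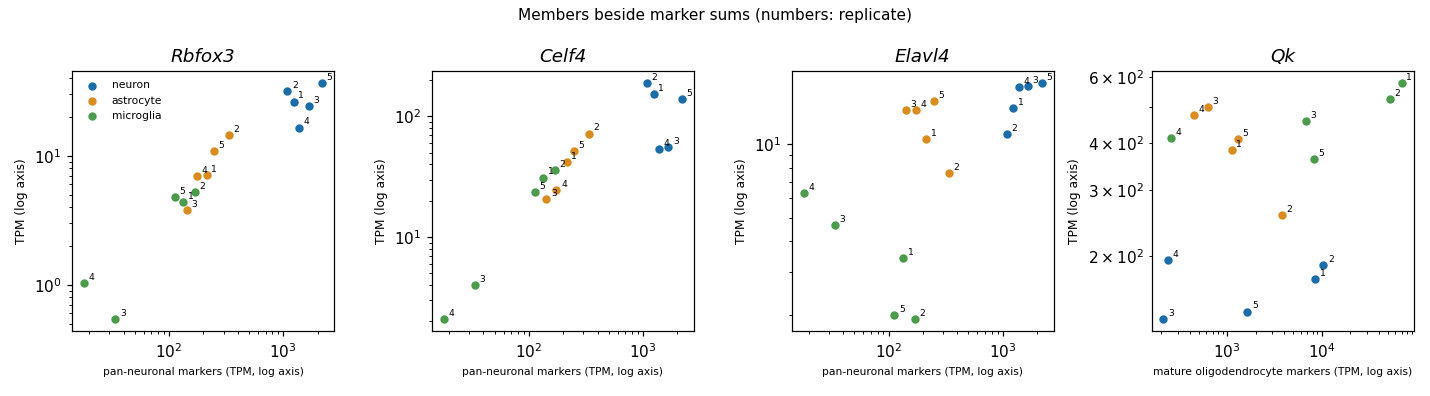
TPM of Rbfox3, Celf4 and Elavl4 in each library against the pan-neuronal marker sum, and of Qk against the mature oligodendrocyte marker sum (both axes logarithmic; numbers give the replicate). Within microglia, Rbfox3 and Celf4 are lowest in replicates 3 and 4, which have the lowest marker sums, Elavl4 is highest there, and Qk is highest in replicates 1 and 2, which have the highest oligodendrocyte sums.

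Nova proteins bind YCAY clusters in neuronal transcripts, and both genes were low here. Nova1 was at 1.19, 1.28, 0.78, 1.37 and 2.05 TPM in neurons, 1.18, 1.34, 3.29, 3.34 and 1.85 TPM in astrocytes and 0.49, 1.29, 0.76, 1.3 and 0.41 TPM in microglia, with all groups overlapping and no call. Nova2 was at 1.59, 1.77, 1.39, 1.43 and 1.68 TPM in neurons, 0.70, 0.60, 0.89, 0.65 and 0.85 TPM in astrocytes and 0.16, 0.20, 0.07, 0.05 and 0.12 TPM in microglia. The 3 groups did not overlap, and the call between neurons and microglia was 1.199 (SE 0.11, adjusted p = 1.5e-08). Srrm4, the nSR100 protein that promotes microexon inclusion, was at 1.22, 1.47, 1.09, 1.58 and 1.35 TPM in neurons, 0.56, 0.42, 0.81, 0.55 and 0.59 TPM in astrocytes and 0.14, 0.08, 0.01, 0.03 and 0.13 TPM in microglia, with a call of 1.12 (SE 0.11, adjusted p = 5.24e-08) between neurons and microglia. Nova2 and Srrm4 reached 1 TPM in the 5 neuron libraries alone, so they passed the filter only through the group where they were high and had to differ. Celf5, Celf6, Elavl2, Khdrbs2 and Srsf12 reached 1 TPM in fewer than 5 libraries outside the neuron isolates. They too passed the filter only with the neuron libraries counted, which favoured a difference in that direction.

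Srrm3, the paralogue of Srrm4 that also acts on microexons (chr5:135806890-135874772, plus strand), was at 7.38, 11.4, 16.7, 12.7 and 22 TPM in neurons, 7.39, 4.55, 3.46, 5.54 and 5.48 TPM in astrocytes and 1.56, 1.86, 0.01, 1.18 and 2.09 TPM in microglia. Neurons and astrocytes touched at replicate 1 of each, where the values were nearly equal, and microglia lay below both. The differences were 1.21 (SE 0.30, adjusted p = 0.00258), 2.699 (SE 0.30, adjusted p = 3.31e-07) and 1.49 (SE 0.30, adjusted p = 0.000253). The first was lost with a pseudocount of 0.1 (1.34, adjusted p = 0.0779 by limma) and, just under the size asked for, without all libraries numbered 3 and 4 (0.99), and the last with quantile normalization (0.93). Srrm1 and Srrm2, general splicing coactivators, were called nowhere. Srrm2, the most abundant of the family, was at 308, 287, 372, 420.0 and 474 TPM in neurons, 339.8, 211, 393, 354 and 289 TPM in astrocytes and 325, 322, 498, 532 and 517 TPM in microglia, and the groups overlapped.

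The Khdrbs genes encode the STAR proteins Sam68 (Khdrbs1), SLM1 (Khdrbs2) and SLM2 (Khdrbs3), which control neurexin splicing. Khdrbs2 (chr1:32172714-32658568, plus strand) was at 4.25, 2.91, 3.09, 5.04 and 6.09 TPM in neurons, 0.86, 2.48, 1.78, 2.02 and 1.64 TPM in astrocytes and 0.31, 0.30, 0.51, 0.07 and 0.25 TPM in microglia. No 2 groups overlapped. It differed by 2.01 (SE 0.19, adjusted p = 4.59e-08) between neurons and microglia and by 1.08 (SE 0.19, adjusted p = 7.17e-05) between astrocytes and microglia, the latter 0.98 and not called without astrocyte replicate 2. Between neurons and astrocytes the difference was 0.93 (SE 0.19, adjusted p = 0.000524), short of the size for a call, and it was called without neuron replicate 2 (1.03) or 3 (1.01) or astrocyte replicate 2 (1.02). Khdrbs3, the most abundant of the 3, was at 49.9, 43.4, 41.4, 51.3 and 63.8 TPM in neurons, 37.8, 40.8, 40.3, 41 and 40.4 TPM in astrocytes and 24.1, 28.5, 27.2, 32.9 and 27.6 TPM in microglia. The groups were separate in that order, yet no difference reached the size for a call; the largest was 0.80 (SE 0.13, adjusted p = 2.08e-05). Khdrbs1 was at 14.9 ± 3.72, 14.2 ± 3.58 and 12.6 ± 3.03 TPM (SD, n = 5 each).

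The Ptbp proteins bind CU-rich RNA and mostly repress exons. Ptbp1, the most abundant of the 3, was at 23.9, 27.9, 43.4, 44.8 and 30.2 TPM in neurons, 19.1, 20.9, 38.3, 28.8 and 27.9 TPM in astrocytes and 21, 27.1, 36.5, 49.6 and 39.5 TPM in microglia. All neuron libraries lay within the range of the other isolates. The difference was 0.32 (SE 0.24, adjusted p = 0.265) from astrocytes and -0.01 (SE 0.24, adjusted p = 0.97) from microglia. Within neurons, Ptbp1 was highest in replicates 3 and 4, where the endothelial marker sum was also highest. That sum was 12328 and 13317 TPM there, against 8850 to 11683 TPM in the other 3. The summed SR and hnRNP transcripts were highest in replicates 3 and 4 too, in each isolate. In astrocytes, Ptbp1 and the endothelial sum were both highest in replicate 3 (38.3 and 1606 TPM). In microglia, Ptbp1 was highest in replicate 4 (49.6 TPM), where the endothelial sum was lowest, at 161 TPM. The part of endothelial RNA in the neuron values was not tested.

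Ptbp2, the neuronal paralogue (chr3:119718742-119784466, minus strand), was at 14.3, 11.1, 15.4, 14.4 and 10.5 TPM in neurons, 12.8, 11.3, 24.3, 16.6 and 17.3 TPM in astrocytes and 7, 4.86, 10, 4.55 and 4.78 TPM in microglia. Neurons and astrocytes overlapped (-0.27 (SE 0.22, adjusted p = 0.31)), and every microglia library lay below them. The excess over microglia was 1.28 (SE 0.22, adjusted p = 4.94e-05) for astrocytes and 1.005 (SE 0.22, adjusted p = 0.000561) for neurons. The latter stood at the size threshold and was lost without neuron replicate 1, 3 or 4 (0.97, 0.95 and 0.97) or microglia replicate 2, 4 or 5 (0.94, 0.92 and 0.94). Ptbp3, known from blood cells as ROD1 (chr4:59471868-59549364, minus strand), was at 5.75, 7.14, 10.3, 10.9 and 7.99 TPM in neurons, 3.06, 1.25, 9.18, 5.18 and 4.17 TPM in astrocytes and 13.9, 13.4, 23.3, 19.5 and 14.7 TPM in microglia. Microglia lay above all other libraries. Astrocytes differed from microglia by -1.83 (SE 0.30, adjusted p = 3.42e-05) and neurons by -0.93 (SE 0.30, adjusted p = 0.0116), which was not called but passed the size without neuron replicate 3 (-1.003) or 4 (-1.02) or microglia replicate 2 (-1.001). Between neurons and astrocytes Ptbp3 was not called in this fit (0.90 (SE 0.30, adjusted p = 0.0186)). It was called without neuron replicate 1 (1.01) or astrocyte replicate 3 (1.16), with a pseudocount of 0.1, and without all libraries numbered 3 and 4.

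Muscleblind proteins bind YGCY elements and drive developmental splicing switches. Mbnl1 (chr3:60472830-60629750, plus strand) was at 28.4, 33.1, 43.6, 49.2 and 39.3 TPM in neurons, 31.1, 22.8, 28.5, 32.6 and 27.8 TPM in astrocytes and 78.2, 91.2, 119.6, 111 and 94 TPM in microglia. Every microglia library was above every other library. The differences were -1.34 (SE 0.16, adjusted p = 6.93e-07) for neurons minus microglia and -1.75 (SE 0.16, adjusted p = 1.88e-08) for astrocytes minus microglia, and both calls held in each of the 26 alternatives. Mbnl2 showed no such excess, at 49.3 ± 9.43, 48.5 ± 9.92 and 41 ± 3.66 TPM in neurons, astrocytes and microglia (SD, n = 5 each). Microglia replicates 1 and 2, which held the most oligodendrocyte RNA, had the lowest Mbnl1 of their group.

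Qk encodes quaking, a STAR protein known for its part in glial and myelin transcripts (chr17:10202601-10319854, minus strand). It was at 173, 189, 136, 196 and 142 TPM in neurons, 384, 258, 498, 476 and 409 TPM in astrocytes and 579.9, 526, 459, 413 and 362 TPM in microglia. All neuron libraries lay below all others, and astrocytes and microglia overlapped. Neurons differed by -1.25 (SE 0.18, adjusted p = 1.15e-05) from astrocytes and by -1.47 (SE 0.18, adjusted p = 8.43e-07) from microglia, and both calls held in each of the 26 alternatives. Mature oligodendrocyte transcripts and Qk were both highest in microglia replicates 1 and 2. The other microglia libraries did not keep that order. In replicate 4, where the oligodendrocyte sum was 252 TPM, Qk was at 413 TPM. In replicate 5, where the sum was 8179 TPM, Qk was lowest of that isolate at 362 TPM. In astrocytes the order was the other way: Qk was lowest in replicate 2, where that sum was highest at 3810.4 TPM, and highest in replicates 3 and 4, where it was lowest at 628 and 445 TPM. In neurons that sum was highest in replicates 1 and 2 (8469 and 10369 TPM), where Qk was at 173 and 189 TPM. It was lowest in replicates 3 and 4 (212 and 236 TPM), where Qk was lowest and highest of that isolate (136 and 196 TPM). The part of oligodendrocyte RNA in the Qk values was not tested.

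Of the 11 SR proteins, 3 were called in at least 1 comparison (57.9% of all tested genes). Srsf1, the founding member of the family (chr11:88047373-88053755, plus strand), was at 37.9, 26.1, 33.5, 36.9 and 39.3 TPM in neurons, 57.9, 51.2, 80.8, 83.1 and 64.2 TPM in astrocytes and 21.1, 17, 20.8, 15.6 and 22.8 TPM in microglia. The 3 groups were separate, with astrocytes highest. Astrocytes exceeded microglia by 1.73 (SE 0.16, adjusted p = 2.61e-08); the difference of neurons from astrocytes, -0.93 (SE 0.16, adjusted p = 0.000101), was short of the size and reached -1.02 without astrocyte replicate 2. Srsf9 (chr5:115327177-115333080, plus strand) was at 77.7, 78.5, 102, 109.6 and 80.5 TPM in neurons, 65.7, 61.9, 76.9, 72.3 and 74.6 TPM in astrocytes and 134, 145, 159, 194 and 174 TPM in microglia. It was separate in all 3 groups and highest in microglia, with -1.18 (SE 0.13, adjusted p = 3.23e-07) between astrocytes and microglia and -0.84 (SE 0.13, adjusted p = 2.02e-05) between neurons and microglia, the latter not called.

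Srsf12, an SR-related repressor, was the lowest SR transcript, at 1.72, 1.09, 2.63, 2.52 and 2.88 TPM in neurons, 0.52, 1.4, 1.15, 0.97 and 1.43 TPM in astrocytes and 0.10, 0.32, 0.17, 0.11 and 0.46 TPM in microglia. It was called between neurons and microglia, which did not overlap, at 1.34 (SE 0.18, adjusted p = 2.99e-06). Srsf5, the most abundant SR transcript, was at 170.2, 139, 265, 259 and 176 TPM in neurons, 231, 191, 327, 300.5 and 269 TPM in astrocytes and 314, 320.2, 526, 487 and 319.9 TPM in microglia. Its difference of neurons from microglia was -0.97 (SE 0.21, adjusted p = 0.000469), short of a call, and it was called without neuron replicate 3 (-1.08) or 4 (-1.07) or microglia replicate 1 (-1.04), 2 or 5 (-1.03 each). Srsf6 had its highest 5 values in microglia (46.3 ± 5.45 TPM against 28.5 ± 6.49 in neurons and 25.9 ± 2.97 in astrocytes, SD, n = 5 each) and was not called in this fit. The summed SR transcripts were 912 ± 197 TPM in neurons, 949 ± 136 TPM in astrocytes and 1163 ± 194 TPM in microglia (SD, n = 5 each), with overlapping ranges.

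Of the 20 hnRNPs, 2 were called in at least 1 comparison (57.9% of all tested genes). Hnrnpa3 (chr2:75659261-75669407, plus strand) was at 82.9, 66.1, 95.7, 107 and 86.8 TPM in neurons, 23, 18.7, 48.3, 41.9 and 38.9 TPM in astrocytes and 46.4, 49.7, 59, 57 and 48.1 TPM in microglia. Neurons were above all others, by 1.403 (SE 0.21, adjusted p = 2.62e-05) over astrocytes and, without a call, 0.73 (SE 0.21, adjusted p = 0.00587) over microglia. Hnrnpa1 (chr15:103240432-103246692, plus strand), which binds UAGGG-like elements and represses exons, was at 83.3, 72.6, 106, 116 and 85.1 TPM in neurons, 47.4, 54.4, 64, 60.9 and 49.7 TPM in astrocytes and 37.4, 45, 48.1, 40.2 and 31.3 TPM in microglia. It was called between neurons and microglia at 1.17 (SE 0.15, adjusted p = 1.79e-06). Both genes have processed pseudogenes of near-identical sequence, so their values depend on how shared reads were assigned and are uncertain to that extent.

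Hnrnpab and Hnrnpr had differences just short of the size for a call. Hnrnpab differed by 0.95 (SE 0.14, adjusted p = 1.94e-05) from astrocytes and 0.94 (SE 0.14, adjusted p = 1.16e-05) from microglia, and both were called without neuron replicate 2, at 1.04 and 1.03. Hnrnpr differed by 0.97 (SE 0.18, adjusted p = 0.000239) from astrocytes and was called without neuron replicate 2 (1.06) or 5 (1.02) or astrocyte replicate 3 (1.097), 4 or 5 (1.02). Both genes were also called between neurons and astrocytes with median-of-ratios scaling and with quantile normalization, and Hnrnpr with a pseudocount of 0.1. Hnrnpk, the most abundant member of all 62 (529 ± 104 TPM in neurons, 721 ± 186 TPM in astrocytes and 436 ± 50.5 TPM in microglia, SD, n = 5 each), was called nowhere. Hnrnpa2b1 followed at 576 ± 82.3, 562 ± 194 and 415 ± 17.9 TPM, with the tightest spread in microglia.

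The 35 members called in no comparison were 18 hnRNPs, 8 SR proteins and 9 members of other families, with mean levels over all libraries from 1.46 to 562 TPM. Among those with a mean of at least 10 TPM, Srsf7, Khdrbs1 and Mbnl2 had the smallest range of group means, 0.17, 0.23 and 0.25 on the log2(TPM + 1) scale. Srsf7 (chr17:80200080-80207307, minus strand) was at 148, 126, 173, 195 and 139 TPM in neurons, 114, 119, 161, 155 and 143 TPM in astrocytes and 132, 144, 146, 152 and 179 TPM in microglia, and the groups overlapped. Hnrnpc (chr14:52073377-52104028, minus strand), which binds uridine tracts, was at 208 ± 29.1, 149 ± 13.1 and 131 ± 14.9 TPM (SD, n = 5 each), and its neuron libraries lay above those of microglia by 0.66 (SE 0.12, adjusted p = 0.000115). A member that misses a call is not shown to be equal between cell types: Hnrnpc between neurons and microglia, for example, passed the adjusted p and not the size.

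Related proteins were compared within a library as the log2 ratio of their (TPM + 1) values, which were described without a test for 18 pairs. The balance of 2 pairs separated all 3 cell types: Elavl4 over Elavl1 and Srrm3 over Srrm2. Elavl4 over Elavl1 was -0.57 ± 0.25 in neurons, -1.73 ± 0.15 in astrocytes and -2.51 ± 0.55 in microglia (SD, n = 5 each, as for all ratios here). The general Hu transcript was thus the larger in each group mean. Srrm3 over Srrm2 was -4.69 ± 0.37, -5.66 ± 0.49 and -7.62 ± 0.86 in the same order. Elavl2 over Elavl1 was -1.96 ± 0.28 in neurons, above -3.93 ± 0.28 in astrocytes and -4.26 ± 0.50 in microglia, which overlapped.

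Ptbp2 over Ptbp1 was -1.28 ± 0.34 in neurons, -0.69 ± 0.11 in astrocytes and -2.30 ± 0.71 in microglia. Neurons overlapped both other groups, so these isolates did not show more Ptbp2 relative to Ptbp1 in neurons than in astrocytes. Ptbp3 over Ptbp1 was -1.88 ± 0.07 in neurons, -2.46 ± 0.50 in astrocytes and -0.96 ± 0.37 in microglia, where it was highest in every library. Mbnl2 over Mbnl1 was above 0 in all neuron and astrocyte libraries (0.35 ± 0.16 and 0.73 ± 0.25) and below 0 in all microglia libraries (-1.24 ± 0.35). Celf2 over Celf1 was 1.38 ± 0.44 in neurons and 2.05 ± 0.18 in astrocytes, both below the 2.87 ± 0.15 of microglia, which overlapped neither. The ratio of Rbfox1 to Rbfox2 overlapped in all 3 groups, at 0.19 ± 0.26, 0.12 ± 0.79 and 0.56 ± 0.69. Nova1 over Nova2 was -0.16 ± 0.24 in neurons, below 0.82 ± 0.44 in astrocytes and 0.69 ± 0.35 in microglia. Khdrbs2 over Khdrbs1 was -1.60 ± 0.43, -2.46 ± 0.50 and -3.38 ± 0.41 in the order neurons, astrocytes and microglia, with microglia separate. Of the 18 pairs, 5 were separate between neurons and astrocytes, 10 between neurons and microglia and 9 between astrocytes and microglia.

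**Figure D5:**
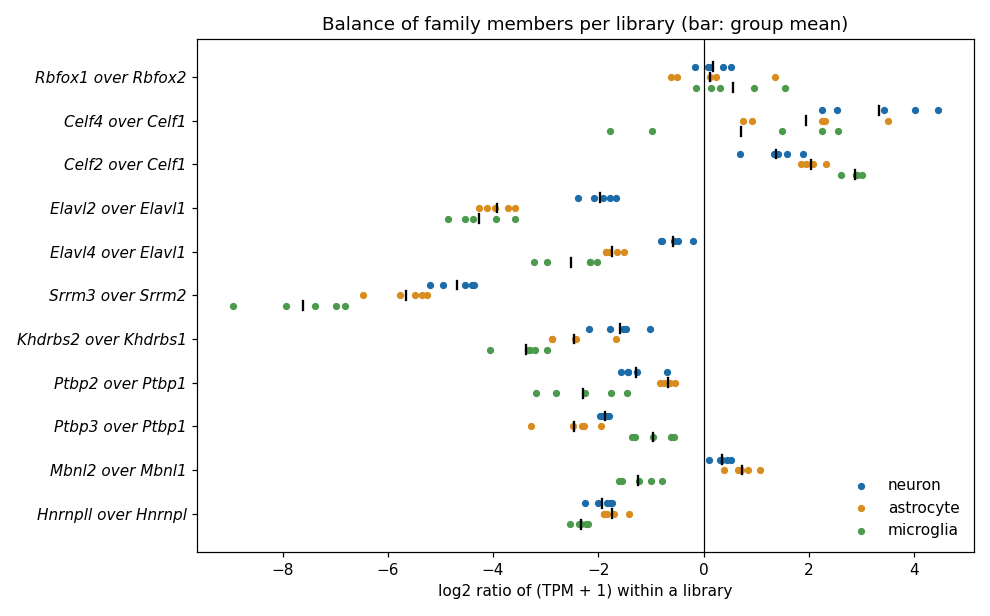
Log2 ratio of (TPM + 1) of 2 members of a family within each library (points) and the mean of each group (vertical bar) for 11 of the 18 pairs; values above 0 mean more of the first gene. Mbnl2 over Mbnl1 changes side between microglia and the other isolates, and Elavl4 over Elavl1 and Srrm3 over Srrm2 fall from neurons to astrocytes to microglia without overlap.

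As shares of their family's summed TPM, which is a value per transcript length, Celf4 made up 58.7 ± 14.7% of the Celf transcripts in neurons, 39.3 ± 15.7% in astrocytes and 20.9 ± 16.5% in microglia, and Celf2 made up 16.8 ± 9.32%, 41.6 ± 14% and 67.6 ± 16.5% (SD, n = 5 each). Mbnl1 made up 43.8 ± 2.72%, 37.3 ± 4.22% and 70.3 ± 5.16% of the Mbnl transcripts in the same order. The 3 Rbfox genes had similar shares in neurons, from 31.4% to 35.9%.

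By genomic span in the annotation (GENCODE vM21, mm10), the 7 members called higher in neurons than in both other cell types had a median of 150.0 kb, from 13.9 kb for Celf3 to 1526 kb for Rbfox1. The 35 members called nowhere had a median of 16.7 kb. SR proteins and hnRNPs, with a median of 10.7 kb, were shorter than the tissue-restricted families, with 79.1 kb, so that span and family go together.

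Other genes of the splicing pathway were read from the same fit. Of 40 core spliceosome genes, 0 were called between neurons and astrocytes, 6 (15%) between neurons and microglia and 7 (17.5%) between astrocytes and microglia, beside 25.6%, 39.3% and 42.5% of all tested genes. The 13 calls were all lower in microglia. Those between neurons and microglia were Eftud2, the GTPase of the U5 particle (1.58), and the Sm ring genes Snrpd2 (1.54), Snrpe (1.37), Snrpg (1.27), Snrpf (1.13) and Snrpd1 (1.06). Snrpe was at 653 ± 113 TPM in neurons, 335 ± 19.5 TPM in astrocytes and 249.8 ± 11.9 TPM in microglia (SD, n = 5 each). The 4 largest between astrocytes and microglia were Snrpd1 (1.27), Prpf19 (1.23), Snrpf (1.205) and Eftud2 (1.15). With quantile normalization the counts were 3 between neurons and microglia and 0 between astrocytes and microglia. Without neuron replicate 2 or astrocyte replicate 2, 1 core gene was called between neurons and astrocytes.

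Of 50 other splicing regulators tested, 3 (6%) were called between neurons and astrocytes, 7 (14%) between neurons and microglia and 11 (22%) between astrocytes and microglia, each share below that of all tested genes (25.6%, 39.3% and 42.5%). Raver2, a cofactor of Ptbp1, was lower in neurons than in astrocytes (-2.35 (SE 0.19, adjusted p = 9.84e-09)) and was at 9.38 ± 2.13 TPM in astrocytes against 1.07 ± 0.63 TPM in neurons and 0.44 ± 0.17 TPM in microglia (SD, n = 5 each). Rbms1 was higher in neurons than in astrocytes (1.28) and than in microglia (2.22), and Son was lower in neurons than in astrocytes (-1.05). Pcbp3, Rbms3 and Rbm24 were higher in neurons (2.74, 2.41 and 1.82) and in astrocytes (2.18, 2.19 and 1.27) than in microglia. Rbm47 ran against that direction, at 7.22 ± 3.07 TPM in microglia, 0.87 ± 0.82 TPM in astrocytes and 0.16 ± 0.16 TPM in neurons, as did Taf15 between astrocytes and microglia (-1.01).

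Of 13 SR protein kinases and phosphatase genes, which set the phosphorylation of SR proteins, 1 (7.69%), 3 (23.1%) and 2 (15.4%) were called between neurons and astrocytes, neurons and microglia, and astrocytes and microglia, where 25.6%, 39.3% and 42.5% of all tested genes were. Srpk1 was higher in neurons than in astrocytes (1.21 (SE 0.18, adjusted p = 2.12e-05)). Srpk3 was at 19.3 ± 3.41 TPM in microglia against 2.48 ± 1.24 TPM in neurons and 1.2 ± 0.46 TPM in astrocytes (SD, n = 5 each), with differences of -2.59 and -3.21. Ppp1cb, a phosphatase catalytic subunit, was lower in microglia than in neurons (1.34) and astrocytes (1.66), and Srpk2 was lower in microglia than in neurons (1.12).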

How the data were processed

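Gene-level TPM values in 15 libraries, which the authors deposited as 1 table with 1 column per library, were used as they stand; each column sums to 1000000 by construction, so library depth cannot be read from it (the labels' protocols state an average of 30 M reads per library, paired-end, 150 nt). Per the submitters' processing notes the build was mm10, and the tools named are RSEM 1.2.28, DESeq2 1.36.0, Trim Galore 0.6.4 and STAR 2.7.1a; how RSEM shared reads between near-identical copies, and whether strand was used, is not given in the sources used here.

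The 13351 genes that reached 1 TPM in 5 or more libraries were fitted on log2(TPM + 1) with limma 3.58.1 (R 4.3.3; moderated test with a mean-variance trend, two-sided), 1 mean per cell type over all 15 libraries, and p-values were adjusted over all tested genes by the Benjamini-Hochberg method. A difference on this scale understates the change of low genes. Coordinates are from GENCODE vM21 (mm10) and promoters from RefSeq (GRCm38.p6). Members and related gene lists were chosen with earlier results of these data known. Named in full were members called in at least 1 comparison and the most abundant member of each family, then the 3 least variable uncalled members, and of each related list up to 4 called genes with the largest differences per comparison and those against the majority. On simulated data, 97 of 100 genes changed by 1.5 (log2) and 100 of 100 changed by 3 were called between neurons and astrocytes. Of 13151 unchanged genes, 5 were called. The same counts were 96, 100 and 3 between neurons and microglia, and 95, 100 and 3 between astrocytes and microglia, with 13351 genes fitted each time. The changed genes were drawn only from those above a set mean level, so recovery of genes near 1 TPM was not tested. The simulated libraries varied independently around a common mean per gene, with no linked replicate numbers and no shift of the all-gene median. The measured libraries had both, so the false calls counted here need not hold for them.

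The labels give each group replicate numbers 1 to 5. Same-numbered libraries deviated together between neurons and microglia, with correlations of 0.22 to 0.38 across genes, and not in each pair between neurons and astrocytes (-0.03 to 0.23) or astrocytes and microglia (-0.01 to 0.25). No 2 libraries held identical values. Each result was also computed with quantile normalization, median-of-ratios scaling, a stricter filter of 5 TPM or none, a pseudocount of 0.1, 2 groups per fit, the replicate number as a block, no variance trend, leaving out libraries singly, and leaving out microglia replicates 1 and 2. Leaving out all libraries numbered 1 and 2, or 3 and 4, was added after seeing the data.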

Additional observations from a re-analysis of the deposited data

Results flagged for a closer look

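In 3 cases a value stood apart from the other 4 libraries of their group by Dixon's test at its 95% critical value of 0.71. Celf5 in neuron replicate 5 was 5.38 TPM, while the other neuron libraries held 1.96 to 2.5 TPM. Hnrnph3 in microglia replicate 2 was 30.5 TPM, above 25.3 to 25.6 TPM in the others. Khdrbs3 in astrocyte replicate 1 was 37.8 TPM, below 40.3 to 41.0 TPM in the others. Chance flags about 1 group in 20, which comes to 8.3 of the 166 groups checked with a mean of at least 1 TPM, so 3 are fewer than chance alone would give.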

How the results depend on the processing

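The 41 called differences were refitted under up to 26 alternatives. Of these, 22 kept their call in every alternative that gave a value, 19 lost it in at least 1, and 0 reversed; 42 uncalled differences changed sign in some setting. With a pseudocount of 0.1, 14 members were called between neurons and astrocytes (13 higher in neurons) and 15 were higher in astrocytes than in microglia. A filter of 5 TPM, which tests fewer members, left 12 called between neurons and microglia (9 higher in neurons). Median-of-ratios scaling gave 8 members higher in microglia than in neurons, 4 higher in astrocytes and 9 higher in microglia between those, and core spliceosome counts of 1, 2 and 0 in the 3 comparisons (neuron-astrocyte, neuron-microglia, astrocyte-microglia). Quantile normalization gave 10 higher in neurons and 7 in microglia, 7 called between astrocytes and microglia (1 and 6), core spliceosome counts of 3 and 0 against microglia, and 6 other regulators between astrocytes and microglia. Without microglia libraries 1 and 2, 5 members were higher in microglia than in neurons; without all libraries numbered 1 and 2, 2 were higher in astrocytes than in neurons and 3 core genes were called there; without all numbered 3 and 4, 5 other regulators were called there. The cause of these shifts was not tested.

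Leaving out libraries singly, 9 to 12 members were called between neurons and astrocytes (8 to 11 higher in neurons, 1 to 2 in astrocytes, the 2 without astrocyte replicate 2), 18 to 21 between neurons and microglia (15 to 17 and 2 to 5, the 5 without neuron replicate 3 or 4 or microglia replicate 2) and 10 to 12 between astrocytes and microglia (7 to 9 and 3 to 3). Core spliceosome counts were 0 to 1, 6 to 6 and 6 to 7, and other regulators 2 to 4, 6 to 8 and 10 to 12. With the replicate number as a block, 10, 20 and 12 members were called in the 3 comparisons. Celf4 was added between neurons and astrocytes (1.43, adjusted p by limma 0.00112), and no other member's call changed. Same-numbered libraries of these 2 cell types did not deviate together in each pair (correlations of -0.03 to 0.23). Whether the numbers pair them is not labelled.

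With a pseudocount of 0.1 the paralogue log2 ratios moved by more than 1 SD for Ptbp3 over Ptbp1 in neurons (-1.996), Elavl2 over Elavl1 in astrocytes and microglia (-4.51 and -6.24), Nova1 over Nova2 (1.35 and 2.03), Celf5 over Celf1 (-3.61 and -4.52) and Khdrbs2 over Khdrbs1 (-2.98 and -5.11) in the same 2 groups, Celf2 over Celf1 in microglia (3.01), Srrm3 over Srrm2 in microglia (-8.74), Srrm4 over Srrm2 in neurons, astrocytes and microglia (-8.00, -8.85 and -11.3), Hnrnpll over Hnrnpl in microglia (-2.47), and Esrp1 over Esrp2 in neurons and microglia (-2.24 and -0.56). Levels near 1 TPM limit what these ratios can show.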
